A study of Mus musculus with 6 samples.

Results

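Cation-chloride cotransporters and the kinases that switch them were followed in cortical cells of mouse embryos from dams given saline or phenobarbital, a barbiturate drug that strengthens inhibition through GABA-A receptors. The set held 9 genes: the importer Slc12a2, the exporters Slc12a4, Slc12a5 and Slc12a7, and the kinases Wnk1, Wnk2, Wnk3, Stk39 and Oxsr1. Members were all probes outside the controls whose accession belongs to one of these genes in the RefSeq gene table. This gave 11 probes for 8 genes, of 20145 genes with a probe on the array. No probe carried an accession of Wnk3. Slc12a5, Wnk1 and Wnk2 had 2 probes each and the other genes 1. All 11 probes were well above background on all 6 arrays.

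The dams were C57BL/6N mice. They received saline in the control group, or 80 mg/kg phenobarbital from a stock of 8 mg/mL, injected with 6 h between doses on embryonic days 10 to 11. Neocortex was taken at day 12 by the protocol (E12.5 in the sample names) and dissociated, and RNA was isolated 4 h after plating on poly-L-ornithine and fibronectin. The labels call the cells neural progenitor cells, and the protocol names no sort, so neurons and other cells of the tissue were not removed by any stated step. Each group held 3 arrays of 1 colour (Cy3). Whether replicates came from separate litters is not stated, so the p-values reflect how much these 6 samples varied, and that variation may be technical.

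These carriers set the chloride content of a cell. Slc12a2 (NKCC1) brings chloride in with sodium and potassium, while the potassium-chloride carriers Slc12a4 (KCC1), Slc12a5 (KCC2) and Slc12a7 (KCC4) let it out. WNK kinases, which are inhibited by chloride, activate the kinases Stk39 (SPAK) and Oxsr1 (OSR1), and these phosphorylate the carriers, which turns NKCC1 on and the KCCs off. Immature cortical cells are known for high NKCC1 and low KCC2, which keeps chloride high and lets GABA depolarise them. KCC2 is a neuronal carrier whose amount grows as neurons mature, and its gene is transcribed from alternative starts.

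The promoter windows of Slc12a5 and Wnk2 are shown because the 2 probes of each of these genes gave unlike values. Each is the 250 bases before a start in the RefSeq table of build GRCm38.p6, in the direction of the gene, and no window can be assigned to a probe. The 2 probes of Slc12a5 are annotated to the same RefSeq transcript, and so are those of Wnk2. Capitals mark matches to an E-box (CACGTG) or a GC box (GGGCGG) on either strand.
Slc12a5, first start, chr2:164960596-164960845, plus strand: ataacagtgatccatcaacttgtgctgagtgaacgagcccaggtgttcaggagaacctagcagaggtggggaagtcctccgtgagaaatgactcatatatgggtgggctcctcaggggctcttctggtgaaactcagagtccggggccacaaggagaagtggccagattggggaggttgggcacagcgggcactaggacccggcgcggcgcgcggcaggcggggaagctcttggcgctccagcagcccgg
Slc12a5, second start, chr2:164967738-164967987, plus strand: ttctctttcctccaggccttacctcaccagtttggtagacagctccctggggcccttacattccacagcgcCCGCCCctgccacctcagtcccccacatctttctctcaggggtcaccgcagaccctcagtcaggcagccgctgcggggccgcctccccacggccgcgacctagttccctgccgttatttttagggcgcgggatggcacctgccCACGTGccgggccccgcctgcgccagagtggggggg
Wnk2, chr13:49148329-49148578, minus strand: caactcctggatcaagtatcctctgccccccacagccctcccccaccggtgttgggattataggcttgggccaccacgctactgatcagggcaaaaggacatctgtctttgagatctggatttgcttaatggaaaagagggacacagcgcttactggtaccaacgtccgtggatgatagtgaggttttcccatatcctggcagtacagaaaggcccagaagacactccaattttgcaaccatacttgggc
The second Slc12a5 window held 1 E-box and 1 GC box, and the first window and that of Wnk2 held neither. Among 32851 windows of this length, 6.02% held the E-box and 32.7% the GC box. The Egr motif, searched as GCGTGGGCG or GCGGGGGCG, was in none of the 10 windows that 8 members had, and in 3.06% of all windows. Slc12a2 had no window, so its promoter was not searched, while Wnk3, which had no probe, had 1. The 2 windows of Slc12a7 overlapped. A match describes letters in a window and is no evidence of binding. The Slc12a5 windows held 13 and 16 CG dinucleotides and that of Wnk2 held 5, against a median of 6 over all windows.

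Of the 11 probes, 1 fell, none rose and 10 did not pass (limma, adjusted p below 0.05). Over all 34672 probes tested, 16.2% passed, so the share of 9.09% among the members was no higher than the background. By direction, 6.97% of all probes rose and 9.24% fell. At an unadjusted p below 0.05 there were 3 member probes, against 35.2% of all probes. The median log2 fold change was -0.06 over the members and -0.15 over all probes. The groups did not overlap for 3 of the 11 probes, or 27.3%, and for 44% of all probes. A negative fold change was found for 7 of the 11 probes and for 65.7% of all probes. After quantile normalization no member passed, while 7.16% of all probes rose and 4.98% fell. Values below are log2 signals relative to the 75th percentile of each array, and each fold change is the phenobarbital mean minus the control mean, ± the fit's standard error, n = 3 per group.

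**Figure D1:**
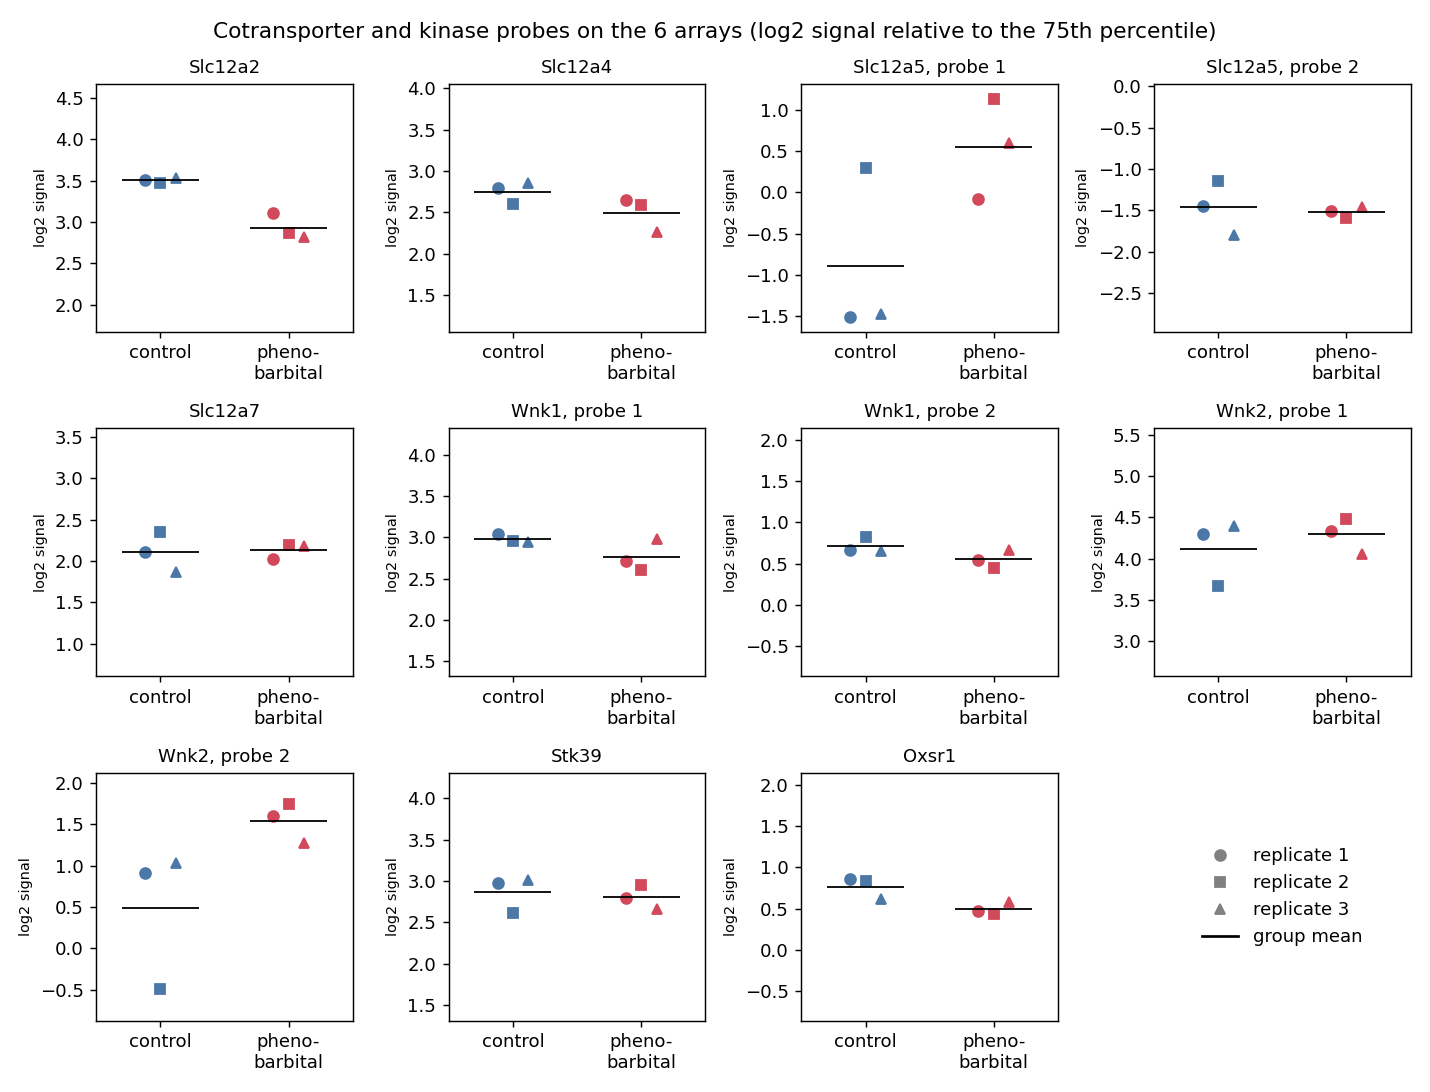
Log2 signal of each member probe relative to the array's 75th percentile (vertical axis, the same span of 3 log2 units in every panel) in the control and phenobarbital groups. Points are single arrays, shapes give the replicate number and lines give group means. Slc12a2 is lower on every phenobarbital array, and the second control array stands away from the other controls for probe 1 of Slc12a5 and both probes of Wnk2.

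Slc12a2, the chloride importer, was the only member with a probe that passed. Replicates 1, 2 and 3 read 3.51, 3.47 and 3.53 among the controls and 3.11, 2.86 and 2.82 after phenobarbital, the order kept for all probes that follow. All phenobarbital arrays lay below all controls, and the controls lay close together (3.50 ± 0.03, SD, against 2.93 ± 0.16). Slc12a2 fell by 0.57 ± 0.12 (limma, adjusted p = 0.0279), which is 1.48-fold lower with a 95% interval of 1.22 to 1.81. Set against the median of all probes, the log2 difference was -0.42. The direction was the same in all 21 other ways of processing, from -0.66 to -0.42, and 11 of these passed. Settings that changed only the filter, outlier spots, variance fit, replicate block or choice of probe could not alter the Slc12a2 fold change of -0.57. Some of the 11 that passed were such refits of the same values. Quantile normalization gave -0.42, short of the threshold (adjusted p = 0.0550). With the slide as a block it was -0.58 (adjusted p = 0.179). The call also ended without control replicate 1 or 3 (adjusted p = 0.0945 and 0.0752) and without phenobarbital replicate 1, 2 or 3 (0.0519, 0.0927 and 0.0702), and it held without control replicate 2 (0.0362).

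Slide and group overlapped in part. Control replicate 1 and the 3 phenobarbital arrays shared slide 1, and control replicates 2 and 3 were on slides 2 and 3, each slide scanned on its own. The slide block therefore compares control replicate 1 with the phenobarbital arrays, and 3.16% of all probes passed it. No member passed it. Controls had a 75th percentile of 1116 to 1291 signal units and phenobarbital arrays one of 1803 to 1862, and its part in the results was not tested. Control replicate 2 was the array least like the others, with Pearson's r across probes of 0.982 and 0.987 to its fellow controls, which had 0.995 between them.

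Slc12a5, the neuronal exporter, gave unlike readings on its 2 probes. On probe 1 (A_55_P2087544) the controls read -1.51, 0.29 and -1.48 and the phenobarbital arrays -0.08, 1.13 and 0.59. Control replicate 2 lay among the phenobarbital arrays, so the groups overlapped. The log2 fold change was 1.45 ± 0.55 (limma, adjusted p = 0.118), with a 95% interval of 0.12 to 2.78. On probe 2 (A_52_P557129) the controls read -1.44, -1.14 and -1.79 and the phenobarbital arrays -1.51, -1.59 and -1.46. The phenobarbital values of that probe lay within the range of the controls. Its log2 fold change was -0.06 ± 0.18 (adjusted p = 0.839), with an interval of -0.49 to 0.37, and it turned to 0.0348 when arrays were scaled by probes detected on every array. A change of the size read by probe 1 lies outside this interval.

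The difference between the Slc12a5 probes was tested within each array, which cancels the scaling. Probe 1 minus probe 2 was -0.06, 1.43 and 0.31 on the controls and 1.43, 2.72 and 2.05 on the phenobarbital arrays. The groups met at control replicate 2 and phenobarbital replicate 1. The shift of 1.51 ± 0.48 did not pass (limma, adjusted p = 0.0674), with an interval of 0.34 to 2.67. Without control replicate 2, probe 1 rose by 2.04 ± 0.34 (adjusted p = 0.0182), probe 2 had 0.10 ± 0.14 (0.619), and the difference between them passed at 1.94 ± 0.39 (0.0195). The mean of both probes had a log2 fold change of 0.69 ± 0.34 (0.192). Neuronal genes went the other way from probe 1: of 10 markers tested, 5 fell (Dcx, Elavl3, Elavl4, Snap25 and Stmn2) and none rose. Over all probes, 9.24% fell and 6.97% rose. The summed linear signal of the neuronal markers, relative to the 75th percentile, was 253 to 271 on controls and 172 to 187 on phenobarbital arrays. In tissue RNA, fewer cells of a type and less RNA per cell cannot be told apart, and the part of the neuronal genes in the Slc12a5 values was not tested.

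The balance of importer to exporter was read as log2 Slc12a2 minus log2 Slc12a5 within each array, of which the change alone is meaningful. With probe 1 it was 5.02, 3.18 and 5.01 on controls and 3.19, 1.73 and 2.23 on phenobarbital arrays. Control replicate 2 again lay beside a phenobarbital array, and the shift was -2.02. With probe 2 it was 4.96, 4.61 and 5.32 against 4.62, 4.45 and 4.28, a shift of -0.51. The exact permutation test gave p = 0.2 for both (two-sided, n = 3 per group), where 0.1 is the smallest that 3 arrays against 3 allow. Neither shift can pass 0.05 by that test.

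Slc12a4, the widely expressed exporter KCC1, did not pass. It read 2.80, 2.60 and 2.85 on controls and 2.65, 2.59 and 2.27 on phenobarbital arrays. The groups overlapped, and its log2 fold change was -0.25 ± 0.14 (limma, adjusted p = 0.258), with a 95% interval of -0.60 to 0.10. Slc12a7, the exporter KCC4, read 2.11, 2.35 and 1.86 against 2.02, 2.20 and 2.18. All phenobarbital values lay within the control range. Its log2 fold change was 0.02 ± 0.15 (adjusted p = 0.927), with an interval of -0.34 to 0.39, and it turned to -0.10 without control replicate 3. Slc12a2 and Slc12a7 are also carriers of the choroid plexus, whose markers were higher with phenobarbital: of 7 tested, 5 rose (Clic6, Folr1, Kcne2, Otx2 and Ttr) and none fell, and Kl was not above the filter. The summed signal of the 7 was 2.05 to 4.22 on controls and 11.8 to 23.0 on phenobarbital arrays. For the 9 radial glia markers it was 329 to 353 and 263 to 292, with Emx2 up and Vim down. Of 6 markers each, 5 fell for red blood cells, 5 for mural cells and meninges and 3 for endothelium, and none of these rose. Over all probes, 9.24% fell and 6.97% rose. Of 6 microglia markers 3 fell and 1 rose (C1qb), and their summed signal was 7.70 to 9.94 on controls and 8.21 to 10.6 on phenobarbital arrays. The part of these genes in the carrier values was not tested.

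**Figure D2:**
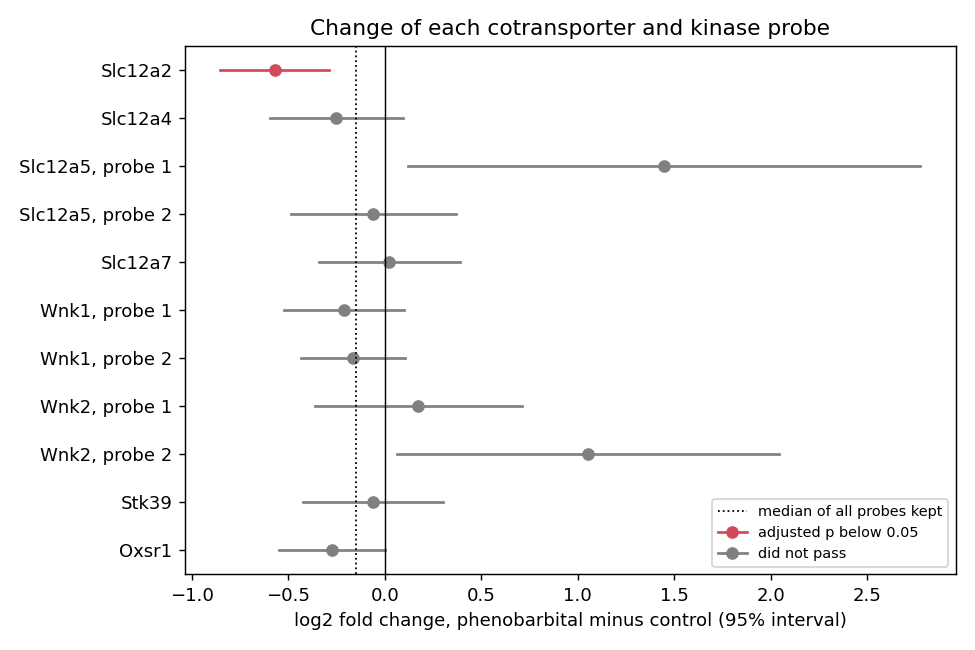
Log2 fold change of each member probe, phenobarbital minus control (horizontal axis), as a point with its 95% interval from limma, n = 3 per group. Slc12a2 in red passed at an adjusted p below 0.05. The dotted line is the median of all probes, -0.15, and the widest intervals are those of Slc12a5 probe 1 and Wnk2 probe 2.

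Among the chloride-sensing kinases, Wnk2 also read differently on its 2 probes. The brighter probe 1 (A_65_P01418) had 4.29, 3.67 and 4.39 on controls and 4.34, 4.49 and 4.06 on phenobarbital arrays. The groups overlapped, with a log2 fold change of 0.17 ± 0.22 (limma, adjusted p = 0.609). The dimmer probe 2 (A_55_P2029517) had 0.91, -0.49 and 1.04 against 1.60, 1.74 and 1.27. All phenobarbital arrays lay above all controls, and control replicate 2 was far below the other controls. The log2 fold change was 1.05 ± 0.41 (adjusted p = 0.125), with an interval of 0.06 to 2.04. Without control replicate 2 it was 0.56 ± 0.16 (0.0647), fitted with slide as a block 0.62 ± 0.23 (0.207), and without control replicate 2 that of probe 1 turned to -0.05.

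Within arrays, Wnk2 probe 1 minus probe 2 was 3.38, 4.16 and 3.36 on controls and 2.73, 2.75 and 2.79 on phenobarbital arrays. These groups did not overlap, and the phenobarbital values lay close together. The shift of -0.88 ± 0.23 passed (limma, adjusted p = 0.0389, interval -1.44 to -0.32), so the probes of this gene reported unequal changes. Such pairs are common on this array: 24.8% of 4780 pairs passed the same test, and in 86.3% of those the dimmer probe had the more positive change, as in Wnk2. In Slc12a5 the brighter probe had the more positive change. The Wnk2 call held without control replicate 2 (-0.61 ± 0.09, adjusted p = 0.00829) and without control replicate 3. It ended without control replicate 1 (0.0564) and without phenobarbital replicates 1, 2 or 3 (0.111, 0.0952 and 0.101), and after quantile normalization (0.0849).

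Wnk1, the most widely expressed WNK kinase, gave like values on its 2 probes. Probe 1 (A_55_P1972688) read 3.04, 2.96 and 2.94 on controls and 2.72, 2.61 and 2.98 on phenobarbital arrays. The groups overlapped at phenobarbital replicate 3, and the log2 fold change was -0.21 ± 0.13 (limma, adjusted p = 0.284). Probe 2 (A_52_P82209) read 0.67, 0.83 and 0.66 against 0.54, 0.45 and 0.66. The same array was nearest the controls, and the log2 fold change was -0.17 ± 0.11 (adjusted p = 0.332). The difference between the probes was -0.05 ± 0.11 (adjusted p = 0.796), with an interval of -0.31 to 0.22.

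Stk39 and Oxsr1, the kinases that act on the carriers, did not pass. Stk39 read 2.97, 2.61 and 3.01 on controls and 2.80, 2.96 and 2.66 on phenobarbital arrays. The groups overlapped fully, and the log2 fold change was -0.06 ± 0.15 (limma, adjusted p = 0.802, interval -0.43 to 0.30), which turned to 0.0739 after quantile normalization. Oxsr1 read 0.86, 0.83 and 0.62 against 0.47, 0.44 and 0.58. All phenobarbital arrays lay below all controls, though control replicate 3 was near them. The log2 fold change was -0.27 ± 0.11 (adjusted p = 0.145), with an interval of -0.55 to 0.00319. Oxsr1 kept its direction in all 21 other ways of processing, from -0.36 to -0.18, and passed in 1 of them, with array weights (0.0363). As for Slc12a2, settings that refit the same values could not alter its fold change of -0.27.

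**Figure D3:**
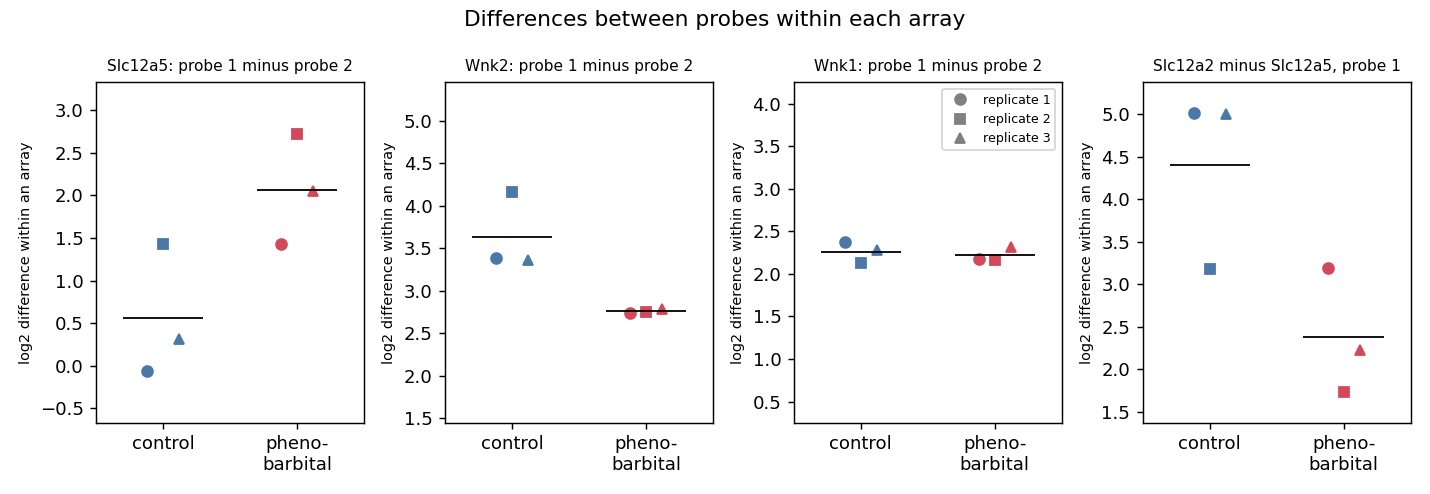
Differences of log2 signal within an array (vertical axis, span of 4 log2 units in each panel) between the 2 probes of Slc12a5, Wnk2 and Wnk1, and between Slc12a2 and probe 1 of Slc12a5. Points are arrays, shapes replicate numbers and lines group means. The Wnk2 groups do not overlap, and those of Wnk1 do.

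A wider list of 44 chloride and ion genes was read from the same fit. It had 62 probes tested, for 40 genes. Of these, 7 rose, 8 fell and 47 did not pass, a share of 24.2% against 16.2% of all probes, and the list's median log2 fold change was -0.10 against -0.15. Klhl3 had no matched probe, and the probes of Slc12a1 and Slc12a3, the kidney carriers, did not pass the filter on dim probes. The list's count was 3, 13 and 5 without control replicates 1, 2 and 3. These fits called 1358, 5987 and 2502 of all 34672 probes. Without phenobarbital replicates 1, 2 and 3 the list's count was 3, 4 and 5, against 1504, 1413 and 1832 of all probes. With the slide as a block it was 4, against 1094 of all probes.

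Among 13 probes of WNK pathway partners, 2 fell, none rose and 11 did not pass. The share of 15.4% was no higher than the 16.2% of all probes. Cab39, the MO25 scaffold that activates Stk39 and Oxsr1, fell by 0.48 ± 0.11 (limma, adjusted p = 0.0386), and its second probe had -0.16 ± 0.10 (0.274). Sgk1, a kinase that regulates sodium transport, fell by 0.44 ± 0.10 (0.0372). After quantile normalization Cab39 and Sgk1 had -0.29 and -0.33 and did not pass.

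Chloride channels were split, with 3 probes that rose, 3 that fell and 10 that did not pass. The share that passed was 37.5%, against 16.2% of all probes. A probe of the plasma membrane channel Clcn2 read -0.88, -1.03 and -1.07 on controls and 0.14, 0.28 and 0.33 with phenobarbital. It rose by 1.25 ± 0.11 (limma, adjusted p = 0.00295), while the brighter Clcn2 probe had -0.05 ± 0.17 (0.869), a difference of -1.29 ± 0.18 (0.00475). Clcn7, the lysosomal exchanger, rose by 1.07 ± 0.11 (0.00434). Lrrc8a, a subunit of the volume-regulated anion channel, rose by 0.82 ± 0.20 on its dimmer probe (0.0392) and had -0.20 ± 0.12 on its brighter one (0.256). The difference, brighter minus dimmer, was -1.03 ± 0.15 (0.00586). In Clcn2 and Lrrc8a the dimmer probe thus had the more positive change, as in 86.3% of the pairs on the array that differed. Lrrc8d, another subunit, fell by 0.55 ± 0.14 (0.0432). After quantile normalization the dimmer Lrrc8a probe had 0.85 (0.0534) and Lrrc8d -0.45 (0.0504), and neither passed.

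Of 10 probes of bicarbonate carriers, 1 rose, none fell and 9 did not pass. That share of 10% was no higher than the 16.2% of all probes. The dimmer probe of the chloride-bicarbonate exchanger Slc4a3 rose by 1.03 ± 0.23 (limma, adjusted p = 0.0320), and its brighter probe had 0.03 ± 0.15 (0.892). Atp1b3, a beta subunit of the sodium pump, fell by 0.48 ± 0.12 (0.0442), and had -0.33 after quantile normalization, which did not pass.

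Partners and regulators of KCC2 had 1 rise, 2 falls and 9 probes that did not pass, a share of 25% against 16.2% of all probes. Rest, a repressor of neuronal genes including Slc12a5, rose by 1.08 ± 0.19 on its brighter probe (limma, adjusted p = 0.0197), from between 0.34 and 0.62 on controls to between 1.30 and 1.97. Its other probe had 0.11 ± 0.10 (0.490), and the difference between them was 0.97 ± 0.20 (0.0183). Egr4, a transcription factor known to act on Slc12a5, fell by 1.07 ± 0.17 (0.0140), from -2.23, -1.82 and -2.37 to -3.33, -3.15 and -3.14. Bdnf, a growth factor that regulates KCC2, fell by 0.84 ± 0.18 (0.0321). The dimmer Clcn2 probe and the Clcn7 probe passed in all 6 fits that left out 1 array and also with the slide block. The other calls named from the wider list passed in 0 to 3 of these 6 fits (0 for Cab39 and Atp1b3, 1 for Sgk1, Lrrc8a, Lrrc8d and Bdnf, 2 for Slc4a3, 3 for Egr4 and Rest), and none of them passed with the slide block.

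Genes most like a member were named by the highest Pearson's r of log2 signal over the 6 arrays, among 19934 probes with a symbol and no missing value. The arrays share slides and groups, so r is given as a description. For Slc12a2 these were Herc2, Phtf1os and Shc4, with r of 0.999, 0.999 and 0.998. In all, 736 probes had r above 0.95 with Slc12a2. The log2 fold changes of Herc2, Phtf1os and Shc4 were -1.33, -0.43 and -1.37, against -0.57 for Slc12a2. For probe 1 of Slc12a5 the most like genes were Sdc4, Aadacl4fm5 and Znrf3, with r of 0.998, 0.994 and 0.991. Here 29 probes lay above 0.95. The log2 fold changes of these Slc12a5-like probes were 0.09, 0.40 and 0.27, against 1.45 for Slc12a5. They shared the pattern across arrays and not the size of the shift.

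**Figure D4:**
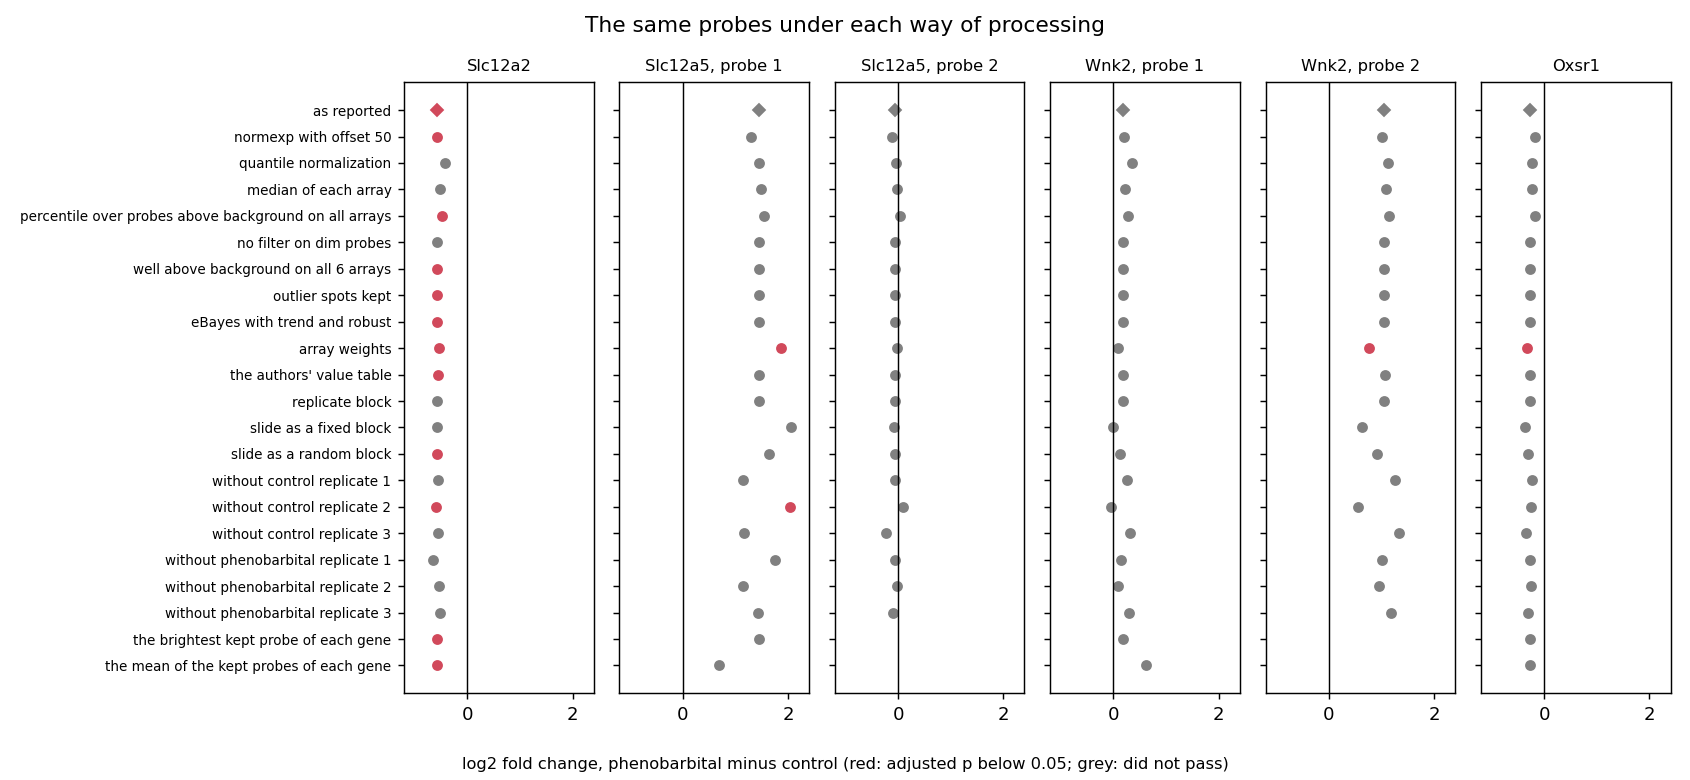
Log2 fold change, phenobarbital minus control (horizontal axis), of 6 member probes under each way of processing (rows), with the reported value as a diamond. Red points passed at an adjusted p below 0.05 and grey points did not. Slc12a2 stays below 0 in all rows and passes in 12 of 22, the reported value included. Probe 1 of Slc12a5 moves between 1.14 and 2.06. The point at 0.69 in its panel is the mean of both Slc12a5 probes.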

How the data were processed

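RNA of 6 samples (0.2 µg each) carried Cy3 on single-colour Agilent arrays. Per the file headers, spots were quantified with Feature Extraction 10.7.3.1 (the submitters' processing notes give 10.7), and the annotation is of build mm9. Background and spatial trend had been removed from the deposited spot intensity, which was not yet scaled across arrays. A table of log2 values from the authors is centred per probe on an unknown constant, with column medians of 0.08, 0.10 and 0.09 in controls and -0.02, -0.09 and -0.08 with phenobarbital. Its differences between arrays matched the scanner files.

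Of 62976 spots, 59305 were not controls. The processed signal was taken to log2, and the 75th percentile of an array's non-control spots was subtracted. Outlier spots, 98 to 198 per array and none of them a member, were left out. Repeated spots were averaged per probe. Of 55681 probes, 26582 had an accession in the RefSeq gene table (GRCm38.p6), which was used for names and promoter windows. The filter kept 34672 probes that all arrays of 1 or both groups read well above background, given 2 or more values in each group. Probes, not genes, were tested, in R 4.3.3 with limma 3.58.1 (lmFit, eBayes), two-sided, no covariates, Benjamini-Hochberg adjustment over all probes and a threshold of 0.05. Pairs of probes of a gene were tested in the same way on their difference within an array, the brightest probe minus each other. Intervals are 95%. Every probe of the 9 genes was named. Of each group of the wider list up to 4 probes past the threshold were named, by smallest p. The members and lists were chosen with earlier results of these data known, and the settings for single probes and pairs of the wider list were added after the values were seen. Simulated data for this comparison held 34672 probes, of which 200 were changed. Of 100 probes with a true log2 change of 1, 43 were recovered. Of 100 with a change of 2, 92 were recovered, and 8 calls were false. In the data 5618 probes passed, a larger share than was changed in the simulation, so these rates need not carry over. Precision is limited by having 3 arrays a group. Some results of the wider list are not reported here. Other settings are given at the end.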

Additional observations from a re-analysis of the deposited data

How the results depend on the processing

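All 15 calls of the wider list and the probe differences of Slc12a5 and Wnk2 kept their direction in every setting run. Slc12a2 did too. Over all probes, 5618 passed as reported (43.0% of them rises). The count was 9200 with normexp on median spot signals (25.6% rises), 3640 with scaling to the median (62.7%), 1929 with no filter on dim probes (68.1%), 12226 with array weights (32.5%) and 1094 with the slide as a block (83.5%). Rises were 59.0% after quantile normalization and 66.7% with the percentile over probes above background on all arrays. Leaving out 1 replicate gave 1358 to 5987. The member count of 1 was 0 after quantile normalization, with scaling to the median, with no filter and with the slide as a block. It was 5 with array weights, and 0 to 2 with 1 replicate left out. At an unadjusted p below 0.05, as reported, 3 member probes passed. The wider list's count of 15 was 8 with scaling to the median, with the percentile over probes above background and with the slide as a random block, 4 with no filter or with the slide as a block, and 27 with array weights. With 1 replicate left out it was 3 to 13. The count of 1187 differing probe pairs was 507 with the slide as a block and 710 to 1279 with 1 replicate left out. Log2 fold changes that turned sign, none of them called, were those of Slc12a5 probe 2 (0.0348 with the percentile over probes above background; -0.227 to 0.101 with 1 replicate left out, positive without control replicate 2), Slc12a7 (-0.0986 to 0.145, negative without control replicate 3 or phenobarbital replicate 2), Stk39 (0.0739 after quantile normalization, 0.0327 with that percentile, and -0.188 to 0.0111, positive without replicate 3 of either group) and Wnk2 probe 1 (-0.0492 to 0.311, negative without control replicate 2). The Wnk1 probe difference turned to 0.0642 after quantile normalization and was -0.111 to 0.00978 with 1 replicate left out, positive without control replicate 1. The causes were not tested.

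The replicate numbers do not pair the arrays: deviations of same-numbered arrays from their group means correlated at 0.06, -0.16 and -0.32. With the replicate block 577 probes, 0 member probes, 1 probe of the wider list and 733 pairs passed. No filter on dim probes could not alter the importer to exporter ratio, whose probes were all kept.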
